A study of Homo sapiens with 12 samples.

Results

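The genes described are 34 that encode proteins of the lysosome or control its supply. They comprise 8 proteases, 11 glycosidases and sulfatases, 7 lipid enzymes and lipid handling proteins, 5 membrane proteins and 3 others, namely the transcription factors TFEB and TFE3 and the granulin precursor GRN. Members were taken by gene symbol and linked to the count table by Ensembl identifier. All 34 were found among the 27745 genes of the count table and among the 60675 genes of the RIP tables, and all 34 were among the 15026 genes that passed the filter on low counts.

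Measurements came from MDA-MB231, an established cell line from a triple-negative breast cancer. RNA-seq was made from lines stably carrying a lentiviral hairpin: a control hairpin (sh_control), a hairpin against TDP43 (sh_TDP43) or a hairpin against SRSF3 (sh_SRSF3), with 2 libraries each. TDP43, made from the gene TARDBP, and SRSF3 are RNA-binding proteins that act in splicing and other steps of RNA processing. RNA immunoprecipitation (RIP) with a Flag antibody was made from MDA-MB231 cells that overexpressed Flag-TDP43 or Flag-SRSF3, with 1 RIP and 1 input library each. Selected cells were harvested as populations, and the labels name a single hairpin for each target. Whether the libraries of a group came from separate cultures is not stated, so each p-value reflects the spread between libraries, and that spread may be technical. The combined knockdown of TDP43 and SRSF3 was not analysed here.

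Lysosomes are acidic compartments in which hydrolases take apart proteins, sugar chains and lipids delivered by endocytosis and autophagy. Most of these enzymes are sorted from the Golgi by a mannose 6-phosphate tag, and loss of single enzymes causes lysosomal storage diseases. TFEB and TFE3 enter the nucleus when nutrient signalling at the lysosome falls and bind a short palindrome, the CLEAR element, in front of many lysosomal genes.

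The promoter windows of the members that hold the core of this element are shown because both factors are themselves members. The windows searched run from 250 bases before to 50 bases after the start site, taken from RefSeq on GRCh38.p14, and 26 of the 34 members matched an entry. The core CACGTG, a palindrome that reads the same on both strands, was found in 7 of these 26 windows and in 7.43% of all 27305 windows of this kind. The longer palindrome TCACGTGA, which contains the core, was found in 4 of 26 and in 1.04% of all. Members with the longer form were CTSA, GAA, LAMP1 and MCOLN1. Capitals mark the core, in the stretch before the start site that best matches the longer form.
CD63: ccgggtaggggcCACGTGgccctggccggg
CTSA: ggcgccggagttCACGTGactcgtacacat
CTSD: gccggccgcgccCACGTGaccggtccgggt
GAA: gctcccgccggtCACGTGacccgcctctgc
LAMP1: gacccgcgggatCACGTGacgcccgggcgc
MCOLN1: gggctaccgggtCACGTGaccgaggc
NEU1: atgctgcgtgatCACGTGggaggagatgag

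On GRCh38.p14 these stretches lie at chr12:55729172-55729201 on the minus strand for CD63, chr20:45891298-45891327 on the plus strand for CTSA and chr11:1763957-1763986 on the minus strand for CTSD. Those of GAA (chr17:80101538-80101567), LAMP1 (chr13:113297199-113297228) and MCOLN1 (chr19:7522598-7522623) are on the plus strand, and that of NEU1 (chr6:31862930-31862959) is on the minus strand. LAMP1 held the core 6 times in its window. GAA, MCOLN1 and CTSA held it 2 times each, and the other members 1 time each. A match describes the letters only.

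Counted reads per hairpin library ranged from 34457445 to 38326930. As a check of the labels, TARDBP stood at 146 ± 30.8 CPM (read counts scaled to library size by TMM, SD, n = 2) in sh_control, 32.9 ± 2.23 in sh_TDP43 and 105 ± 4.52 in sh_SRSF3. SRSF3 stood at 431 ± 38.9 CPM in sh_control, 62.9 ± 1.63 in sh_SRSF3 and 184 ± 5.01 in sh_TDP43. The sh_TDP43 libraries thus also carried less SRSF3 RNA (log2 change -1.23, edgeR adjusted p = 3.05e-07), and the sh_SRSF3 libraries less TARDBP RNA (log2 change -0.48, adjusted p = 0.00326). The part of either in the changes of the lysosomal genes was not tested. All 7 markers of the line (VIM, CD44, AXL, MSN, KRT18, KRT8 and CAV1) were at 1 CPM or more in each group. Summed luminal breast and fibroblast markers stayed between 19.8 and 36.7 CPM in every library. The markers of the line summed to 7557 to 7700 CPM in sh_control, 5469 to 5631 in sh_TDP43 and 6908 to 7100 in sh_SRSF3, so they were lower in both knockdowns. In bulk RNA, fewer cells of a type and less RNA per cell cannot be told apart.

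In sh_control the lysosomal genes were abundant for their length. Their median level was 19.3 CPM per kilobase of exon, against 4.37 for all genes tested. CD63, a tetraspanin of late endosomes, was highest at 205 CPM per kilobase, followed by PSAP, the precursor of the saposins that help lipids reach their enzymes, at 184. Next came the cathepsins CTSZ at 121 and CTSD at 76.0 CPM per kilobase, then GRN at 60.4 and CD68 at 60.3, a pair that differed by less than the spread of either. The regulator TFEB was lowest at 0.908 CPM per kilobase, below the beta-mannosidase MANBA at 1.37 and the hexosaminidase alpha subunit HEXA at 2.29, while TFE3 stood at 41.0. By role, the median level per kilobase was 38.9 CPM for proteases, 35.0 for membrane proteins, 16.6 for lipid enzymes and handling proteins and 8.47 for glycosidases and sulfatases. The summed level of all 34 was 4721 and 4955 CPM in the sh_control libraries. It was 4993 and 5398 CPM with the TDP43 hairpin and 5040 and 5283 CPM with the SRSF3 hairpin. On this TMM scale each knockdown library was above both controls, the lowest of them by little (4993 against 4955 CPM). PSAP alone went from a mean of 596 CPM in sh_control to 791 in sh_TDP43 and 973 in sh_SRSF3. The sum was not taken under upper-quartile scaling, which moved the median log2 change over all genes by -0.15 in sh_SRSF3.

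**Figure D1:**
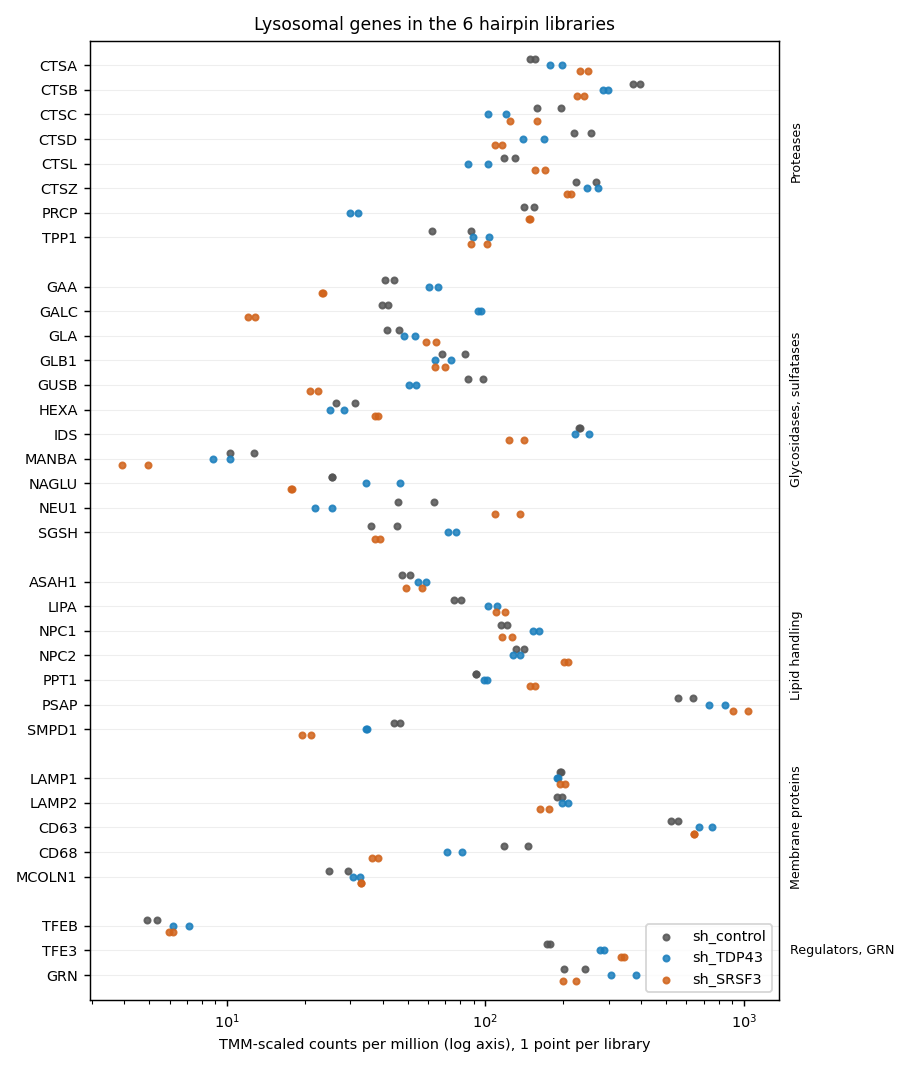
Level of each lysosomal gene in CPM (TMM-scaled, log axis) in each of the 6 hairpin libraries, grouped by role. Points for PRCP lie near 31 in sh_TDP43 and near 148 elsewhere, while those for GALC lie in 3 separate places, 94.9 in sh_TDP43, 41.0 in sh_control and 12.5 in sh_SRSF3 on average.

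Neither knockdown moved the lysosomal genes in 1 direction. In sh_TDP43, 11 of the 34 rose and 9 fell against sh_control (edgeR quasi-likelihood test, Benjamini-Hochberg adjusted p under 0.05), and 14 were not called. Over all genes tested, 20.7% were called higher and 24.1% lower, 44.8% in all. In sh_SRSF3, 13 members rose and 11 fell, and 10 were not called, where 32.5% of all genes were called higher and 34.4% lower, 66.9% in all. Both comparisons use the same control libraries. Median changes of the 34 were 0.10 (log2) in sh_TDP43 and 0.01 in sh_SRSF3, beside -0.00 and -0.03 over all genes tested. Under upper-quartile scaling the split in sh_SRSF3 was 8 higher and 14 lower: CTSL, TPP1, HEXA, CD63 and MCOLN1 lost their calls, with adjusted p from 0.0662 to 0.382, and CTSZ, GLB1 and LAMP2 were called lower. In sh_TDP43 it gave 15 higher and 9 lower, adding TPP1, GLA, ASAH1 and MCOLN1. With it, the median over all genes moved by 0.09 in sh_TDP43, by -0.15 in sh_SRSF3 and by 0.25 between the knockdowns. Of all 15026 genes tested, it called 3959 higher and 6020 lower in sh_SRSF3, and 3956 higher and 2978 lower in sh_TDP43.

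Most changes were moderate. Changes of 2-fold or more were called for 1 member upwards (GALC) and 2 downwards (PRCP and NEU1) in sh_TDP43, where 6.25% and 6.44% of all genes met the same rule. In sh_SRSF3 they were called for 1 member upwards (NEU1) and 6 downwards (GUSB, CD68, GALC, MANBA, SMPD1 and CTSD), against 11.3% and 20.4% of all genes. The libraries of the groups did not overlap for 28 of 34 members in sh_TDP43 and 25 of 34 in sh_SRSF3, while 73.2% and 83.2% of all genes tested did not overlap.

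Set side by side, 5 members were higher in both knockdowns (CTSA, LIPA, PSAP, CD63 and TFE3) and 6 were lower in both (CTSB, CTSC, CTSD, GUSB, SMPD1 and CD68). A further 5 were called in opposite directions. GAA, GALC and NAGLU rose in sh_TDP43 and fell in sh_SRSF3, and CTSL and NEU1 fell in sh_TDP43 and rose in sh_SRSF3. SGSH, NPC1 and GRN rose and PRCP fell in sh_TDP43 without a call in sh_SRSF3. TPP1, GLA, HEXA, NPC2, PPT1 and MCOLN1 rose and IDS and MANBA fell in sh_SRSF3 without a call in sh_TDP43. CTSZ, GLB1, ASAH1, LAMP1, LAMP2 and TFEB were called in neither. Of all genes tested, 44.8% were called in sh_TDP43 and 66.9% in sh_SRSF3, with the control libraries shared. The shares of all genes with each joint pattern were not derived, so these counts are not read as particular to the members. Tested directly, 15 members were higher in sh_TDP43 than in sh_SRSF3 and 11 lower, where 33.5% and 32% of all genes were called (65.5% in all). Of these, 6 were at least 2-fold higher and 2 at least 2-fold lower, against 20% and 10.6% of all genes. Upper-quartile scaling gave 18 higher and 5 lower, and the lower calls of CTSA, CTSC, GLA, HEXA, PSAP and TFE3 were lost under it. Over all 15026 genes it gave 6451 higher and 3378 lower, against 5041 and 4801 under TMM scaling. Of all genes, 83.8% did not overlap between these groups, as did 29 of the 34 members.

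**Figure D2:**
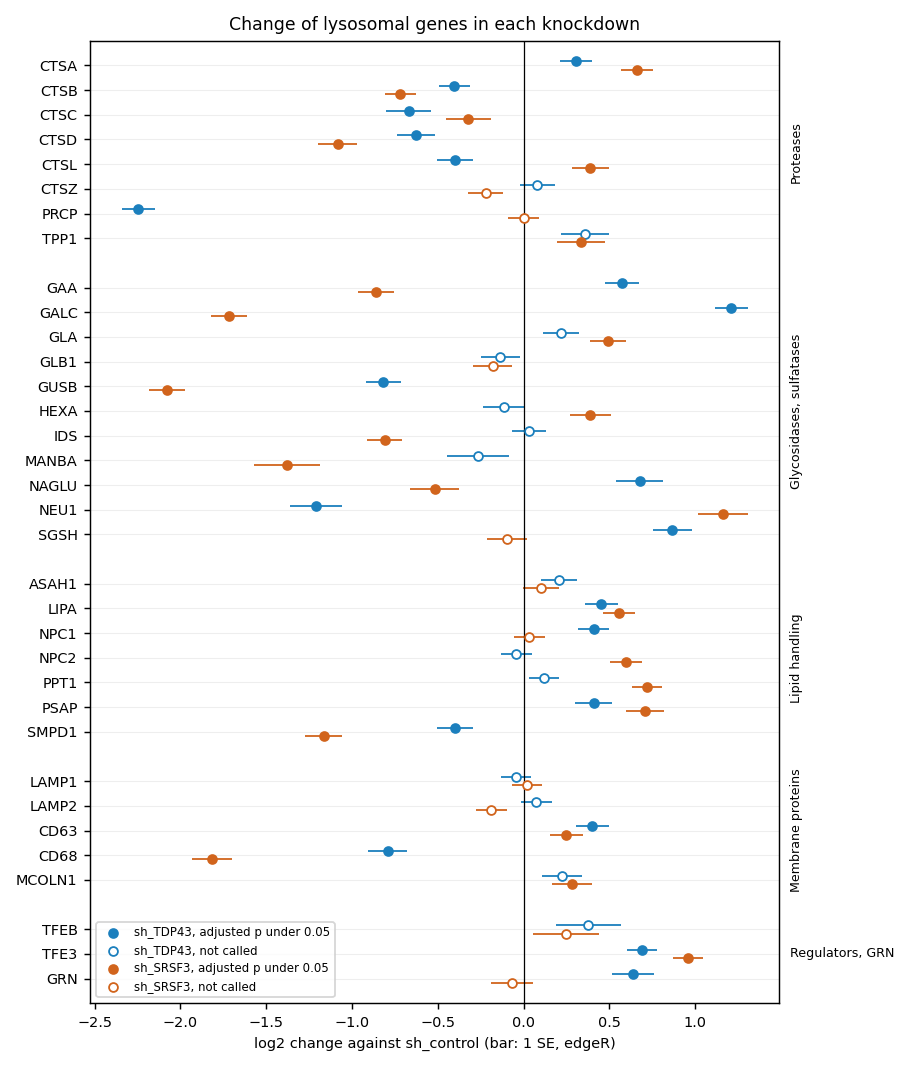
log2 change of each lysosomal gene in sh_TDP43 and sh_SRSF3 against sh_control, with 1 standard error as the bar and filled points for an adjusted p under 0.05. The standard error was derived from the edgeR F statistic. GALC and NEU1 have filled points on opposite sides of 0, and PRCP has a filled point at -2.25 in sh_TDP43 and an open one at 0.00 in sh_SRSF3.

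Among the 8 proteases, 5 fell and 1 rose in sh_TDP43, with a median log2 change of -0.40, and 3 fell and 3 rose in sh_SRSF3, with a median of -0.11. Of all genes tested, 24.1% fell and 20.7% rose in sh_TDP43, and 34.4% fell and 32.5% rose in sh_SRSF3. PRCP, a carboxypeptidase that cuts after proline, gave the largest fall of any member in sh_TDP43. It stood at 141 and 154 CPM in sh_control, at 32.2 and 30.03 in sh_TDP43 and at 147 and 148 in sh_SRSF3. Both sh_TDP43 libraries lay far below the other libraries, and the sh_SRSF3 libraries lay within the control range. PRCP was 4.75-fold lower in sh_TDP43 (log2 change -2.25, SE 0.10, adjusted p = 3.78e-09) and its change in sh_SRSF3 was 0.00 (SE 0.09, adjusted p = 0.995). The difference between the knockdowns was -2.25 (SE 0.10, adjusted p = 6.53e-10). The gene lies on the minus strand of chromosome 11, 82534544 to 82681626 (GRCh37). Its exons overlap DDIAS on the other strand, which stood at 40.8 CPM in sh_control, and counting without strand cannot separate the reads they share.

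Cathepsins, the main lysosomal proteases, differed among themselves. CTSD, the aspartic cathepsin, stood at 220 and 256 CPM in sh_control, at 139 and 169 in sh_TDP43 and at 116 and 109 in sh_SRSF3. Its groups did not overlap, and it fell by 0.63 (SE 0.11, adjusted p = 0.000401) in sh_TDP43 and by 1.08 (SE 0.11, adjusted p = 1.09e-06) in sh_SRSF3 on the log2 scale. CTSB, a cysteine cathepsin, fell from 385 ± 15.7 CPM to 291 ± 10.3 in sh_TDP43 (adjusted p = 0.00245) and 234 ± 10.2 in sh_SRSF3 (adjusted p = 8.14e-06). CTSL, another cysteine cathepsin, went from 124 ± 8.68 CPM to 94.2 ± 12.1 in sh_TDP43 and 163 ± 10.9 in sh_SRSF3, a difference of -0.79 between the knockdowns (SE 0.11, adjusted p = 1.65e-05). CTSA, the protective protein that forms a complex with NEU1 and GLB1, rose from 152 ± 5.27 CPM to 188 ± 13.3 and to 241 ± 12.5. CTSC, which activates serine proteases of immune cells, stood at 177 ± 27.2 CPM in sh_control, 111 ± 12.8 in sh_TDP43 and 142 ± 23.8 in sh_SRSF3. Its sh_SRSF3 libraries overlapped the control ones.

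Calls of CTSA, CTSL and CTSC were lost when certain single libraries were left out, which leaves 1 library in a group. Fewer genes were then called over all genes too, so a lost call does not show that 1 library carried it. In sh_TDP43, the log2 change of CTSA was 0.30 with all libraries, 0.26 without sh_control replicate 1 and 0.24 without sh_TDP43 replicate 2. That of CTSL was -0.40 with all libraries and -0.28 without sh_TDP43 replicate 1. In sh_SRSF3, CTSL changed by 0.39 with all libraries and by 0.30 without sh_SRSF3 replicate 2. CTSC changed there by -0.32 with all libraries, by -0.16 without sh_control replicate 1 and by -0.18 without sh_SRSF3 replicate 2. TPP1, the tripeptidyl peptidase absent in a form of Batten disease, was at 62.3 and 88.3 CPM in sh_control, at 89.6 and 103 in sh_TDP43 and at 88.2 and 101 in sh_SRSF3. Its adjusted p was 0.0522 and 0.0493, on either side of the threshold, and the difference between the knockdowns was 0.02 (SE 0.14, adjusted p = 0.889). Without sh_control replicate 1 the TPP1 change in sh_SRSF3 was 0.10 (adjusted p = 0.487), and without sh_control replicate 2 that in sh_TDP43 was 0.62 (adjusted p = 0.00109). With the replicate number as a block, the TPP1 change in sh_TDP43 was called (0.37, adjusted p = 0.0017). CTSZ, a carboxypeptidase cathepsin, stood at 246 ± 30.6 CPM in sh_control, 260 ± 17.4 in sh_TDP43 and 211 ± 5.34 in sh_SRSF3. It was called lower in sh_SRSF3 only without sh_control replicate 2 (-0.35, adjusted p = 0.00909) among the libraries left out in turn, and was called with the block (-0.22, adjusted p = 0.0308).

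Of the 11 glycosidases and sulfatases, 4 rose and 2 fell in sh_TDP43 (median log2 change 0.03), while 3 rose and 6 fell in sh_SRSF3 (median -0.52), beside 20.7% and 24.1% of all genes in sh_TDP43 and 32.5% and 34.4% in sh_SRSF3. The direct comparison gave 7 higher and 3 lower in sh_TDP43 than in sh_SRSF3, where 33.5% and 32% of all genes were called. GALC, the galactosylceramidase that is deficient in Krabbe disease, showed the widest separation of any member. It stood at 40.0 and 42.0 CPM in sh_control, at 93.9 and 95.8 in sh_TDP43 and at 12.9 and 12.1 in sh_SRSF3. All 3 groups were apart, with sh_TDP43 highest and sh_SRSF3 lowest. GALC was 2.31-fold higher in sh_TDP43 (log2 change 1.21, SE 0.10, adjusted p = 4.1e-07) and 3.29-fold lower in sh_SRSF3 (log2 change -1.72, SE 0.10, adjusted p = 6.59e-09), and the knockdowns differed by 2.93 (SE 0.11, adjusted p = 2.64e-10). It lies on the minus strand of chromosome 14, 88304164 to 88460009 (GRCh37).

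NEU1, the lysosomal sialidase, moved the other way. Its libraries stood at 46.0 and 63.4 CPM in sh_control, at 21.9 and 25.4 in sh_TDP43 and at 109 and 136 in sh_SRSF3, again 3 groups without overlap. It was 2.31-fold lower in sh_TDP43 (log2 change -1.21, SE 0.15, adjusted p = 2.14e-05) and 2.24-fold higher in sh_SRSF3 (log2 change 1.16, SE 0.15, adjusted p = 7.27e-06). NEU1 lies on the minus strand of chromosome 6, 31825436 to 31830683 (GRCh37). The difference between the knockdowns was -2.37 (SE 0.15, adjusted p = 1.41e-08), the largest in that direction among the members. CTSA, its partner, rose in both knockdowns, and GLB1, the beta-galactosidase of the same complex, was at 75.7 ± 10.7, 68.9 ± 6.82 and 66.8 ± 4.43 CPM in sh_control, sh_TDP43 and sh_SRSF3. The libraries of GLB1 overlapped in each comparison, and its log2 change in sh_SRSF3 was called only without sh_control replicate 1 among the libraries left out in turn (-0.32, adjusted p = 0.0282).

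GUSB, the beta-glucuronidase often used as a reference gene in quantitative PCR, fell in both knockdowns. It stood at 97.8 and 85.6 CPM in sh_control, at 53.6 and 50.4 in sh_TDP43 and at 20.9 and 22.5 in sh_SRSF3. Each sh_SRSF3 library held less than either sh_TDP43 library, which in turn held less than either control. The fall was 1.76-fold in sh_TDP43 (log2 change -0.82, SE 0.10, adjusted p = 2.27e-05) and 4.22-fold in sh_SRSF3 (log2 change -2.08, SE 0.11, adjusted p = 1.84e-09), the largest among the members in that comparison. GUSB lies on the minus strand of chromosome 7, 65425671 to 65447301 (GRCh37).

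GAA and NAGLU moved in the same directions as GALC, by less. GAA, the acid alpha-glucosidase that degrades glycogen, stood at 42.5 ± 2.51 CPM in sh_control, 63.2 ± 3.57 in sh_TDP43 and 23.4 ± 0.268 in sh_SRSF3, a difference of 1.43 between the knockdowns (SE 0.10, adjusted p = 4.39e-08). NAGLU, an alpha-N-acetylglucosaminidase of heparan sulfate breakdown, stood at 25.4 and 25.5 CPM in sh_control, at 34.5 and 46.8 in sh_TDP43 and at 17.6 and 17.9 in sh_SRSF3. Its rise of 0.68 (SE 0.14, adjusted p = 0.00124) had the wider spread, and its log2 change in sh_SRSF3 was -0.52 (SE 0.14, adjusted p = 0.00489). SGSH, the sulfamidase of the same breakdown route, stood at 36.0 and 45.4 CPM in sh_control, at 71.6 and 77.0 in sh_TDP43 and at 37.3 and 39.003 in sh_SRSF3. The sh_SRSF3 libraries fell inside the control range, and the rise in sh_TDP43 was 0.87 (SE 0.12, adjusted p = 3.93e-05). Exons of SGSH overlap SLC26A11 on the other strand, which was at 15.9 CPM in sh_control.

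MANBA, the beta-mannosidase, was a low gene at 10.3 and 12.7 CPM in sh_control, at 8.85 and 10.3 in sh_TDP43 and at 4.96 and 3.91 in sh_SRSF3. It was 2.60-fold lower in sh_SRSF3 (log2 change -1.38, SE 0.19, adjusted p = 2.05e-05), and its change in sh_TDP43 was -0.27 (SE 0.18, adjusted p = 0.251). IDS, the iduronate sulfatase, fell only in sh_SRSF3, from 231 ± 0.644 to 132 ± 12.1 CPM (adjusted p = 6.31e-06), with 237 ± 20.7 in sh_TDP43. The knockdowns differed for both genes, by 1.11 for MANBA (adjusted p = 0.000161) and 0.84 for IDS (adjusted p = 4.56e-06). Among the glycosidases that rose in sh_SRSF3, GLA, the alpha-galactosidase of Fabry disease, went from 43.8 ± 3.36 to 61.6 ± 4.09 CPM (adjusted p = 0.000845). HEXA, the alpha subunit of hexosaminidase that is deficient in Tay-Sachs disease, went from 28.9 ± 3.51 to 37.8 ± 0.603 CPM (adjusted p = 0.0109), a call lost without sh_control replicate 1 (0.27, adjusted p = 0.0935) or sh_SRSF3 replicate 2 (0.36, adjusted p = 0.061). In sh_TDP43, GLA stood at 51.0 ± 3.60 CPM and HEXA at 26.7 ± 2.35. The GLA change there was called with the replicate block (0.22, adjusted p = 0.0428) as well as under upper-quartile scaling.

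Of the 7 lipid enzymes and lipid handling proteins, 3 rose and 1 fell in sh_TDP43, where 20.7% and 24.1% of all genes did. In sh_SRSF3, 4 rose and 1 fell, against 32.5% and 34.4% of all genes. Their median log2 changes were 0.21 and 0.55. PSAP stood at 558 and 634 CPM in sh_control, at 737 and 845 in sh_TDP43 and at 909 and 1037 in sh_SRSF3. The groups did not overlap, and the rise was 0.41 (SE 0.11, adjusted p = 0.00721) in sh_TDP43 and 0.71 (SE 0.11, adjusted p = 5.06e-05) in sh_SRSF3. Without sh_TDP43 replicate 2 the PSAP rise in sh_TDP43 was 0.31 (adjusted p = 0.0884).

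PPT1, the palmitoyl-protein thioesterase, stood at 92.1 CPM in both sh_control libraries, 99.2 and 101 in sh_TDP43, and 149 and 155 in sh_SRSF3. Only its rise in sh_SRSF3 passed the test (0.72, SE 0.09, adjusted p = 5.33e-06), and the knockdowns differed by -0.60 (adjusted p = 3.22e-05). NPC2, which hands cholesterol to NPC1 in the lysosome, showed the same picture, with 136 ± 7.11 CPM in sh_control, 132 ± 6.54 in sh_TDP43 and 206 ± 5.16 in sh_SRSF3 (rise of 0.60, adjusted p = 4.77e-05). NPC1, the membrane protein that exports this cholesterol, rose instead in sh_TDP43, from 118 ± 5.05 to 157 ± 5.97 CPM (adjusted p = 0.00255), and stood at 121 ± 7.64 in sh_SRSF3. The direct comparison gave -0.64 for NPC2 (adjusted p = 2.64e-05) and 0.37 for NPC1 (adjusted p = 0.00262). Without sh_SRSF3 replicate 1 the NPC1 difference was 0.30 (adjusted p = 0.0536). Exons of NPC2 overlap ISCA2 and those of NPC1 overlap C18orf8, each on the other strand and near 25 CPM in sh_control.

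LIPA, the acid lipase that splits cholesteryl esters, rose in both knockdowns, from 77.9 ± 3.61 CPM to 107 ± 6.52 (adjusted p = 0.00145) and 114 ± 6.95 (adjusted p = 0.000131). Its exons overlap IFIT2, an interferon-induced gene on the other strand that stood at 316 CPM in sh_control, so LIPA counts are uncertain. SMPD1, the acid sphingomyelinase, was the only member of this role that fell, from 45.6 ± 1.71 CPM to 34.5 ± 0.152 in sh_TDP43 (adjusted p = 0.00696) and 20.3 ± 1.10 in sh_SRSF3 (adjusted p = 4.07e-07). Its log2 change in sh_TDP43 was -0.40, and without sh_TDP43 replicate 2 it was again -0.40 with an adjusted p of 0.0545. ASAH1, the acid ceramidase, was not called in either knockdown, at 49.4 ± 2.40, 57.0 ± 2.83 and 52.9 ± 5.38 CPM in sh_control, sh_TDP43 and sh_SRSF3.

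Of the 5 membrane proteins, 1 rose and 1 fell in sh_TDP43, and 2 rose and 1 fell in sh_SRSF3, with the same shares of all genes called. LAMP1 and LAMP2, the main glycoproteins of the lysosomal membrane, were called in neither. LAMP1 stood at 195 and 196 CPM in sh_control, at 191 and 189 in sh_TDP43 and at 202 and 194 in sh_SRSF3. All 6 libraries were close, with changes of -0.04 (SE 0.09, adjusted p = 0.718) and 0.02 (SE 0.09, adjusted p = 0.857). LAMP2 stood at 193 ± 6.86, 204 ± 8.30 and 170 ± 9.59 CPM in sh_control, sh_TDP43 and sh_SRSF3. The 2 knockdowns differed for it by 0.26 (SE 0.09, adjusted p = 0.0211), a call lost without sh_SRSF3 replicate 1, at 0.20 and an adjusted p of 0.201, and without sh_TDP43 replicate 1, at 0.21 and 0.138. With a replicate block its change in sh_SRSF3 was called, at -0.19 and an adjusted p of 0.0409.

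CD68, a heavily glycosylated relative of the LAMP proteins, fell in both knockdowns. It stood at 118 and 146 CPM in sh_control, at 71.3 and 81.0 in sh_TDP43 and at 36.5 and 38.3 in sh_SRSF3. The groups were apart, in that order. The fall was 1.73-fold in sh_TDP43 (log2 change -0.79, SE 0.11, adjusted p = 6.73e-05) and 3.53-fold in sh_SRSF3 (log2 change -1.82, SE 0.12, adjusted p = 1.12e-08), and the knockdowns differed by 1.03 (SE 0.12, adjusted p = 2.7e-06). CD68 lies on the plus strand of chromosome 17, 7482785 to 7485431 (GRCh37). It is also used as a marker of macrophages, so the macrophage and haematopoietic list is given beside it. The summed level of the 7 listed genes in the count table was 3.66 to 4.98 CPM in sh_control, 3.64 to 5.05 in sh_TDP43 and 0.886 to 1.17 in sh_SRSF3. In sh_SRSF3, 0 of 7 reached 1 CPM, against 2 of 7 in sh_control and in sh_TDP43, and TYROBP was at 0 in every library. Of the 4 listed genes that were tested, 4 were called lower in sh_SRSF3 (median log2 change -2.06), where 34.4% of all genes were. In sh_TDP43, 1 was called higher and 1 lower, against 20.7% and 24.1% of all genes. The listed genes are low, and a link to the CD68 level was not tested.

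CD63 rose from 540 ± 22.5 CPM to 713 ± 57.8 in sh_TDP43 (0.40, SE 0.09, adjusted p = 0.00343) and 642 ± 3.15 in sh_SRSF3 (0.25, SE 0.09, adjusted p = 0.0308). The call in sh_SRSF3 was lost without sh_control replicate 2 (0.21, adjusted p = 0.11) and without sh_SRSF3 replicate 1 (0.26, adjusted p = 0.101) or 2 (0.23, adjusted p = 0.157). MCOLN1, the calcium channel TRPML1 of the lysosomal membrane, stood at 29.3 and 24.9 CPM in sh_control, at 30.8 and 32.6 in sh_TDP43 and at 32.96 and 33.02 in sh_SRSF3. Both knockdowns lay above the control range. The change was 0.23 (SE 0.12, adjusted p = 0.13) in sh_TDP43 and 0.28 (SE 0.12, adjusted p = 0.0441) in sh_SRSF3, and the latter lost its call without any 1 of 5 libraries, all but sh_control replicate 1, with changes of 0.17 to 0.29 and adjusted p between 0.0623 and 0.282. Its exons overlap PNPLA6 on the same strand, which stood at 90.9 CPM in sh_control.

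The regulators differed from each other. TFEB stood at 5.35 and 4.91 CPM in sh_control, at 6.19 and 7.14 in sh_TDP43 and at 6.19 and 5.98 in sh_SRSF3. Each knockdown library was above both controls, but the changes of 0.38 (SE 0.19, adjusted p = 0.123) and 0.25 (SE 0.19, adjusted p = 0.271) did not pass the test at this depth. TFE3 stood at 174 and 177 CPM in sh_control, at 279 and 288 in sh_TDP43 and at 345 and 336 in sh_SRSF3. The 3 groups were tight and apart. TFE3 was 1.62-fold higher in sh_TDP43 (log2 change 0.69, SE 0.09, adjusted p = 2.56e-05) and 1.94-fold higher in sh_SRSF3 (log2 change 0.96, SE 0.09, adjusted p = 3.65e-07), the second largest rise of a member there after NEU1. The difference between the knockdowns was -0.26 (adjusted p = 0.0159). Its call was lost without any 1 of the 4 knockdown libraries, with adjusted p between 0.0582 and 0.0908, while the difference stayed between -0.27 and -0.24.

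GRN encodes progranulin, a secreted protein that is cut into granulins in the lysosome. It stood at 201 and 243 CPM in sh_control, at 307 and 384 in sh_TDP43 and at 200 and 225 in sh_SRSF3. Only the sh_TDP43 libraries were above the control range. The rise was 0.64 (SE 0.12, adjusted p = 0.000821) in sh_TDP43, the change in sh_SRSF3 was -0.07 (SE 0.12, adjusted p = 0.641), and the difference between the knockdowns was 0.70 (SE 0.12, adjusted p = 0.000171).

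Members with the CACGTG core in the windows printed above were not of 1 direction either. Of these 7, 3 were higher and 2 lower in sh_TDP43 and 4 higher and 2 lower in sh_SRSF3, with median log2 changes of 0.23 and 0.25. Of the 19 members whose window lacks it, 5 were higher and 6 lower in sh_TDP43 and 7 higher and 6 lower in sh_SRSF3, with medians of 0.08 and 0.00070. Of all genes tested, 20.7% were called higher and 24.1% lower in sh_TDP43, and 32.5% and 34.4% in sh_SRSF3. Only 7 windows hold the core, and the split was not tested. LAMP1, whose window holds the core most often, had changes of -0.04 in sh_TDP43 and 0.02 in sh_SRSF3, neither of them called.

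Other genes of the lysosomal system were counted in 6 further lists, 107 of whose 108 genes were tested. In sh_TDP43, 40 of the 107 rose and 23 fell, where 20.7% and 24.1% of all genes did. In sh_SRSF3, 64 rose and 26 fell, against 32.5% and 34.4% of all genes. Of 26 other lysosomal enzymes and cofactors, 1 rose in sh_SRSF3 (SIAE, a sialic acid esterase, by 0.99) and 15 fell, the largest fall being that of the cathepsin CTSS (log2 change -2.12, SE 0.25, adjusted p = 3.47e-06). In sh_TDP43, 5 of these 26 rose, led by SIAE (1.69, SE 0.10, adjusted p = 2.34e-08), and 10 fell, led by GM2A, the GM2 activator (log2 change -1.36, SE 0.17, adjusted p = 2.33e-05). The median log2 change of these 26 in sh_TDP43 was -0.08. With single libraries left out it ran from -0.19 (without sh_control replicate 1) to 0.11 (without sh_control replicate 2).

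Of 15 other membrane proteins, 13 rose in sh_SRSF3, led by LMBRD1, a cobalamin exporter (2.40, SE 0.15, adjusted p = 9.74e-09), and 2 fell, led by HGSNAT, an acetyltransferase of heparan sulfate breakdown (log2 change -1.34, SE 0.13, adjusted p = 4.28e-07). Of 16 subunits and partners of the vacuolar proton pump, 11 rose, led by ATP6V0A1 (1.63, SE 0.12, adjusted p = 4.85e-08), and 2 fell. Of 17 genes of nutrient signalling on the lysosome, 14 rose, led by FNIP1, a partner of folliculin (2.21, SE 0.11, adjusted p = 1.24e-09), and 3 fell, and of 16 autophagy genes 15 rose, led by the ATG8 family member GABARAPL1 (1.91, SE 0.18, adjusted p = 3.89e-07), and 1 fell, the kinase ULK1 (log2 change -1.30, SE 0.12, adjusted p = 4.17e-07). Upper-quartile scaling gave 10 higher of the 15 membrane proteins and 10 higher of the 16 autophagy genes, where 3959 of all 15026 genes were higher. Without sh_SRSF3 replicate 2 the median log2 changes of these 2 lists were 0.81 and 0.82, against 0.88 and 0.90 with all libraries. That of the autophagy genes was 0.84 without sh_control replicate 1. Sorting genes of the mannose 6-phosphate route were split 10 higher to 3 lower of 17. Beside these lists, 32.5% of all genes rose and 34.4% fell in sh_SRSF3.

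Of the same 15 membrane proteins, 9 rose and 1 fell in sh_TDP43, again HGSNAT (log2 change -1.55, SE 0.13, adjusted p = 4.98e-07), with LMBRD1 leading the rises (0.94, SE 0.15, adjusted p = 0.000182). The pump list gave 9 higher and 1 lower of 16. Its median log2 change was 0.27, and 0.28 without sh_TDP43 replicate 2. With the replicate block the list had 2 lower. Its largest rise was again that of ATP6V0A1 (1.03, SE 0.12, adjusted p = 1.33e-05) and its fall that of ATP6V1B2 (log2 change -0.61, SE 0.10, adjusted p = 0.00016). Autophagy genes gave 8 higher, led by GABARAPL1 (1.80, SE 0.18, adjusted p = 2.71e-06), and 2 lower. The lower count was 1 under upper-quartile scaling, with no filter on low counts and with only the libraries compared. Their median log2 change was 0.41, and 0.32 to 0.48 with single libraries left out. Sorting genes gave 6 higher and 3 lower. Nutrient signalling gave 3 higher, led by MITF, a relative of TFEB and TFE3 (1.31, SE 0.09, adjusted p = 1.59e-07), and 6 lower, led by the GTPase RRAGA (log2 change -0.88, SE 0.10, adjusted p = 9.08e-06), and 5 and 5 under upper-quartile scaling. Beside these lists, 20.7% of all genes rose and 24.1% fell in sh_TDP43, and under upper-quartile scaling 3956 and 2978 of 15026 did. None of the list counts was tested as a set.

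**Figure D3:**
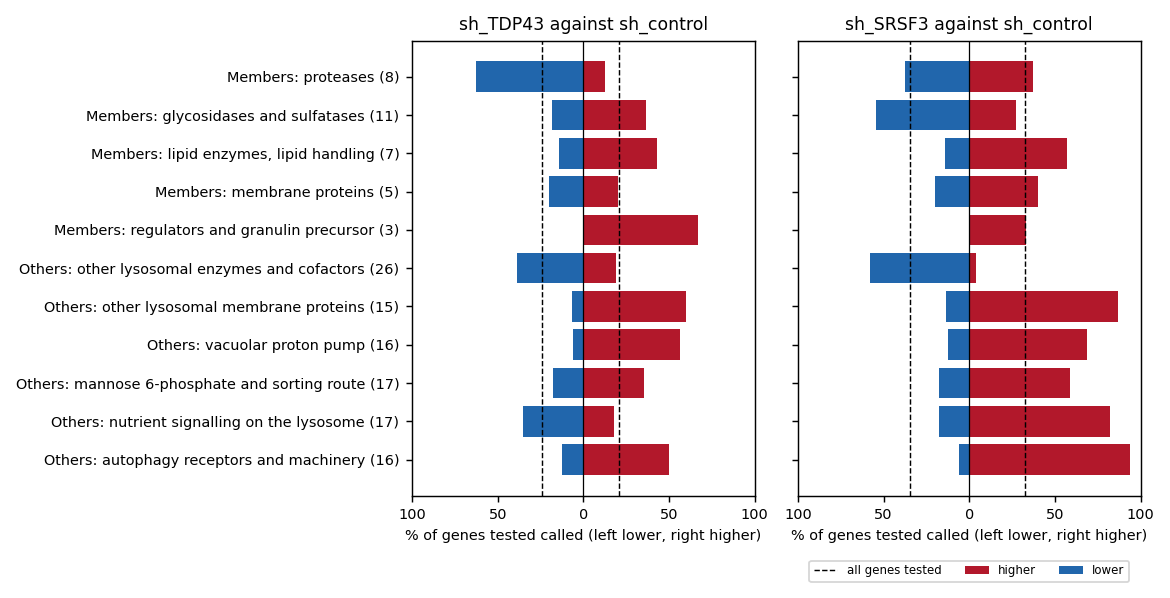
Share of tested genes called higher (right, red) and lower (left, blue) in each list, in sh_TDP43 and sh_SRSF3 against sh_control, with dashed lines for all genes tested and the number of genes in brackets. In sh_SRSF3 the bars of the member glycosidases and of the other enzymes reach further left than right, and those of the member proteases reach equally far. The bars of all other lists reach further right than left.

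RIP recovery was read as the log2 ratio of RIP over input FPKM with 1 added to each, for members with an input FPKM of at least 1. There is 1 library of each kind, a control immunoprecipitation was not analysed here, and the values are described without a test. A second deposited table of the same libraries holds another normalised signal, and recovery is called 2-fold in both only where both tables pass. By FPKM, 283 and 319 of 10897 expressed genes are listed at 0 in the Flag-TDP43 and Flag-SRSF3 inputs, against 29 and 24 by the signal. Over these genes the log2 values of the inputs correlated at 0.952 by FPKM and 0.979 by the signal. The tables also differ for some well expressed members, such as CTSA and IDS below. TARDBP stood at 14.2 FPKM in the Flag-TDP43 input and 1.76 in the Flag-SRSF3 input, and SRSF3 at 54.9 FPKM in the Flag-SRSF3 input and 29.3 in the other.

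With Flag-TDP43, 6 of 30 members were recovered at least 2-fold above input and 7 at least 2-fold below, where 12.9% and 14.4% of all genes were. In both tables this held for 2 above and 5 below, against 9.14% and 10.8% of all genes. The second table alone gave 2 above and 7 below of 34, against 10.4% and 14.2% of all genes. PSAP was highest, with 391 FPKM in the RIP and 105 in the input (log2 ratio 1.89, and 1.22 in the second table), and CTSL followed among those held by both, with 121 and 46.0 FPKM (1.38 and 1.13). CD63 had 155 and 44.6 FPKM (1.77), but 0.95 in the second table. CD68 was lowest, with 2.17 FPKM in the RIP and 14.1 in the input (log2 ratio -2.25, and -2.30 in the second table). NPC2 had 3.79 and 17.5 FPKM (-1.94), but -0.75 in the second table. The rest of the 5 below input in both tables were CTSA with 2.66 and 9.99 FPKM, CTSB with 17.4 and 49.7, LAMP1 with 9.11 and 25.3 and GAA with 1.42 and 4.96. The input was under 1 FPKM for MANBA, SGSH, MCOLN1 and TFEB.

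With Flag-SRSF3, 8 of 31 members were at least 2-fold above input and 2 below, where 11.7% and 7.66% of all genes were. In both tables this held for 5 above (NPC2, CD68, MCOLN1, CTSD and TFE3) and for 1 below (CD63), against 6.88% and 4.9% of all genes. The second table alone gave 6 above and 2 below of 34, against 7.87% and 7.66%. CD68, lowest with Flag-TDP43, was highest here, with 79.98 FPKM in the RIP and 17.1 in the input (log2 ratio 2.16, and 2.13 in the second table). CTSD had 369 and 121 FPKM (1.60 and 1.44), MCOLN1 5.47 and 1.23 (1.54 and 1.44), TFE3 31.6 and 10.98 (1.45 and 1.18) and NPC2 42.0 and 15.0 (1.43 and 1.34). CD63 had 40.3 and 87.8 FPKM (-1.10 and -1.27). The same sign in both tables follows from the rule that picked these 6, and both tables come from the same libraries.

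For others the table decided the reading. CTSA, the lowest with Flag-SRSF3 by FPKM at 0.650 in the RIP and 8.93 in the input (-2.59), had 1.11 in the second table, and IDS, with 10.7 FPKM in the RIP and 2.06 in the input, had 1.93 by FPKM and -0.10 by the second. GAA was 2-fold above input by FPKM only, with 8.87 and 1.48 FPKM (1.99) and 0.88 in the second table. GLA, with the next lowest ratio by FPKM after CD63, had 8.30 and 15.3 FPKM (-0.81 and -0.57). The sign differed between the tables for 4 of 30 members with Flag-TDP43 (GLA, IDS, ASAH1 and SMPD1) and for 6 of 31 with Flag-SRSF3 (IDS, PPT1, CTSA, PRCP, TPP1 and GRN), against 13.3% and 17.1% of all genes. Input was under 1 FPKM for MANBA, SGSH and TFEB. GRN had 58.4 and 28.0 FPKM with Flag-TDP43 (1.03 and 0.86) and 10.6 and 11.3 with Flag-SRSF3 (-0.09 and 0.39). LAMP1, below input with Flag-TDP43, had 51.0 and 27.2 FPKM with Flag-SRSF3 (0.88 and 0.62).

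By role, median recovery with Flag-SRSF3 was 0.88 for the 5 membrane proteins, 0.59 for 9 glycosidases and sulfatases, -0.02 for the 7 lipid genes and -0.20 for the 8 proteases. With Flag-TDP43 the medians were -0.14 for 4 membrane proteins, 0.09 for 9 glycosidases and sulfatases, 0.35 for the lipid genes and -0.35 for the proteases. Over all genes the median was 0.08 with Flag-SRSF3 and -0.08 with Flag-TDP43, and the median of the members was 0.19 and 0.04. In the second table the members' median with Flag-TDP43 was -0.36. Of the 30 members with input in both experiments, 5 had a recovery at least 2-fold higher with Flag-TDP43 and 9 with Flag-SRSF3, 16.7% and 30%, where 18.9% and 24.8% of all genes did. Of the 5, CTSA had a difference of 1.00 by FPKM but -2.97 in the second table, and GRN 1.12 by FPKM and 0.47 in the second table.

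**Figure D4:**
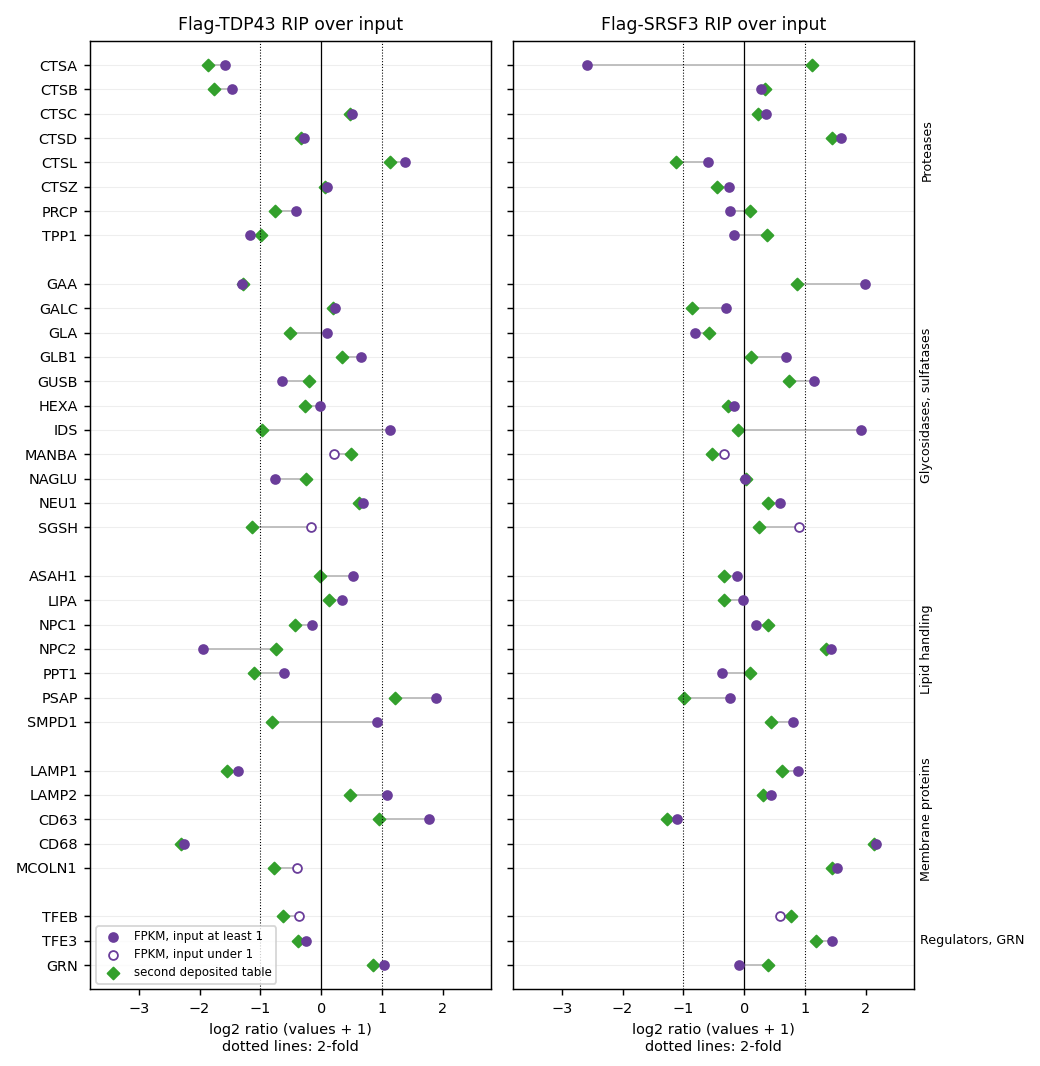
log2 RIP over input ratio (1 added to each value) of each lysosomal gene with Flag-TDP43 (left) and Flag-SRSF3 (right), 1 library each, by FPKM (circles, open where the input was under 1) and by the second deposited table (diamonds), with dotted lines at 2-fold. CD68 lies at -2.25 on the left and 2.16 on the right with both tables close together, while CTSA and IDS on the right lie far apart between the tables.

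Recovery and knockdown changes are given side by side for the members that passed 2-fold in both tables. Of the 2 above input with Flag-TDP43, PSAP rose and CTSL fell in sh_TDP43. Of the 5 below input with Flag-TDP43, CTSA and GAA rose, CD68 and CTSB fell and LAMP1 was not called in sh_TDP43. Of the 5 above input with Flag-SRSF3, TFE3, NPC2 and MCOLN1 rose and CD68 and CTSD fell in sh_SRSF3, and CD63, below input, rose. These groups hold few members, and a link between recovery and knockdown change was not tested. GALC, NEU1 and PRCP, the 3 members with the largest differences between the knockdowns, were under 2-fold by FPKM in both RIPs, at 0.23, 0.69 and -0.42 with Flag-TDP43 and -0.30, 0.59 and -0.23 with Flag-SRSF3. GUSB, with the largest fall in sh_SRSF3, had 1.15 with Flag-SRSF3 by FPKM and 0.74 by the second table.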

How the data were processed

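Hairpin libraries were given by the authors as raw counts per gene. Per the file headers, featureCounts v1.4.6-p5 assigned reads to exons with neither a strand nor a read-pair option. RIP values are FPKM per gene, per the file headers. Another deposited table holds a normalised signal for each gene of the RIP libraries, in a unit that no source used here names. The authors' log2 ratios in that table were used only to learn how it was made. The submitters' processing notes name GRCh37, Cufflinks, StringTie 1.3.0, HISAT2 2.0.5 and STAR 2.5.2a without roles. In the count table, 2 columns matched no label and were not used, so the planned comparisons with the combined knockdown were not run.

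Counts were fitted with edgeR 4.0.16 in R 4.3.3 (TMM, filterByExpr, quasi-likelihood, two-sided), with 6 libraries in 1 fit and 3 residual degrees of freedom, and adjusted over 15026 genes. Each standard error (SE) was derived as the absolute log2 change divided by the square root of the quasi-likelihood F statistic. The script was tested on simulated data. Deviations of same-numbered libraries correlated at 0.20 to 0.28 in each of the 3 pairs of groups. A pairing of libraries is not stated in the labels, and these 3 values do not establish one. Values from a fit with the number as a block are given where they change a call. Alternatives were upper-quartile and RLE scaling, low-count filters, a replicate block, DESeq2 1.42.0 and leaving out each library. The second RIP table was an alternative chosen after seeing the data. Lists and members were chosen with earlier results of these data known. Values in every library are given for the 4 largest called rises and falls of each knockdown, the 3 highest and lowest recoveries of each RIP (input at least 1 FPKM, pseudocount 1), and TFEB, TFE3, GRN, MCOLN1 and LAMP1, with a few further members. The number of reads behind the FPKM values was not derived, so no counting intervals are given. Replicate libraries were not repeats of each other, with a chi-square per gene of 12 to 24.6.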

Additional observations from a re-analysis of the deposited data

Results flagged for a closer look

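CD68 stood out between the RIPs. Its log2 recovery was -2.25 with Flag-TDP43 and 2.16 with Flag-SRSF3, a difference of -4.42, with opposite signs in the only library pair of each experiment and in both deposited tables. The difference was not tested, since there was 1 RIP and 1 input library for each protein.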

How the results depend on the processing

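Of the called members, 16 of 20 in sh_TDP43 (9 higher, 7 lower), 18 of 24 in sh_SRSF3 (8 and 10) and 16 of 26 between the knockdowns (11 and 5) stayed called in all 13 alternatives. The share of all called genes that did so was not derived, so these counts are not read as particular to the members. Over all genes, upper-quartile scaling took higher calls in sh_SRSF3 from 4881 to 3959 and lower calls between the knockdowns from 4801 to 3378. Among members, this scaling gave 8 against 13 and 5 against 11 of these calls. It also turned changes that were not called: NPC2 0.050 and LAMP1 0.051 in sh_TDP43, PRCP -0.15, ASAH1 -0.055, NPC1 -0.12 and LAMP1 -0.14 in sh_SRSF3, and LIPA 0.15, LAMP1 0.19 and MCOLN1 0.19 between the knockdowns. PRCP in sh_SRSF3 was -0.0088 with a filter at 1 CPM and -0.012 with only the libraries compared. Leaving out each library in turn gave 9 to 12 higher and 8 to 9 lower in sh_TDP43, 8 to 11 and 10 to 12 in sh_SRSF3, and 12 to 15 and 7 to 11 between the knockdowns, with the fewest in sh_SRSF3 higher and between the knockdowns lower without sh_SRSF3 replicate 2. It also took uncalled changes across 0: in sh_TDP43 CTSZ -0.048 to 0.21, GLB1 -0.28 to 0.0082, HEXA -0.24 to 0.0082, IDS -0.064 to 0.13 and NPC2 -0.10 to 0.0029, in sh_SRSF3 PRCP -0.063 to 0.065, SGSH -0.25 to 0.080, ASAH1 -0.023 to 0.20, NPC1 -0.046 to 0.10, LAMP1 -0.0092 to 0.035 and GRN -0.20 to 0.072, and between the knockdowns TPP1 -0.082 to 0.14, GLB1 -0.045 to 0.14 and ASAH1 -0.0022 to 0.23. With 1 library left in a group, it is assumed to vary like the others. Comparisons with that group then also called fewer of all genes tested, in both directions. The causes of these shifts were not tested. With Flag-TDP43, members 2-fold above input numbered 3 with a pseudocount of 5 and 2 in the second table against 6, and those below 4 with a pseudocount of 5 against 7. Over all 15026 genes, a replicate block gave 3570 higher and 4102 lower in sh_TDP43 and 5167 and 5398 in sh_SRSF3. Between the knockdowns it gave 5301 and 5112. For the members the block gave 13 higher and 9 lower in sh_TDP43, 13 and 13 in sh_SRSF3, and 15 and 11 between the knockdowns. It lost no member's call and added those of TPP1 and GLA in sh_TDP43 and CTSZ and LAMP2 in sh_SRSF3. With 2 libraries a group, changes of low genes such as TFEB and MANBA have standard errors of 0.18 to 0.19. In sh_TDP43, changes of 0.38 for TFEB and -0.27 for MANBA were not called.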
